A study of Mus musculus with 36 samples.

Results

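The genes described here encode oxidative phosphorylation, the chain of 4 respiratory complexes and the ATP synthase of the inner mitochondrial membrane, in 36 RNA libraries from the mouse olfactory epithelium. Members were the protein-coding genes whose symbols start with Nduf, Sdha to Sdhd, Uqcr, Cox4 to Cox8 or Atp5 in the nuclear genome, and mt-Nd, mt-Co, mt-Cyb (spelled mt-Cytb in the annotation used) or mt-Atp in the mitochondrial genome. The rule gave 107 members among 57010 gene identifiers: 94 nuclear identifiers for 93 symbols, since Atp5o has 2, and 13 mitochondrial genes. A further 13 pseudogenes and non-coding genes matched by symbol only and were left out. The symbols are those of an older annotation, in which the ATP synthase subunits still carry Atp5 names and the complex I assembly factors share the Nduf prefix. Some members share sequence with other genes: Atp5g1, Atp5g2 and Atp5g3 encode the same mature peptide, mitochondrial genes have nuclear copies, and mt-Atp8 overlaps mt-Atp6 as mt-Nd4l overlaps mt-Nd4, so counts may be split between such genes.

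The libraries hold RNA that came down with phosphorylated ribosomal protein S6 (pS6), a mark of recently activated neurons, from wild-type C57BL/6J males aged 8 weeks. After 4 h of habituation each mouse was exposed for 90 min to filter paper with 10 µL of an undiluted odorant or 1:1 mixture, or to paper without odor. Each of 12 groups holds 3 libraries labelled as biological replicates, and the groups form 3 sets that the labels call batches, each with its own no-odor controls: acetophenone, decanal and their mixture; octanal, cis-3-hexenol and their mixture; and floral, mint and floral-mint odor. Totals ran from 16039580 to 26388040 counts per library. All groups carry the immunoprecipitation, and unprecipitated input was not analysed here, so each value is a share of the precipitated RNA and not a level in the tissue. Odor comparisons within a set share their controls. In such bulk samples, fewer cells of a type and less RNA per cell cannot be told apart.

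Complexes I to IV pass electrons from NADH and succinate to oxygen, and complexes I, III and IV pump protons. Complex V, the ATP synthase, uses the proton gradient to make ATP. Complex II is encoded entirely in the nucleus, whereas the other complexes combine many nuclear subunits with a few core subunits encoded by mitochondrial DNA. Nuclear members are translated by cytosolic ribosomes, which contain protein S6. Mitochondrial messages are translated by separate ribosomes inside the organelle, which lack it. Olfactory sensory neurons carry mitochondria in their dendrites and cell bodies and use both oxidative phosphorylation and glycolysis for odor transduction.

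Levels of different genes were compared as counts per 1000000 counts of the library (CPM) per kilobase of the principal transcript, as means over all 36 libraries. The highest nuclear members were Cox4i1, a complex IV subunit, at 953 CPM per kilobase, and Atp5b, the catalytic beta subunit of the ATP synthase, at 819. Atp5g3, a gene for the membrane c ring, followed at 790, ahead of Cox6a1 at 692 and Ndufa4, known as a complex IV component but counted in complex I here by its name, at 679. The median over nuclear members was 166 CPM per kilobase. By complex the medians were 138 for complex I, 163 for complex II, 193 for complex IV, 267 for complex III and 273 for complex V, while the complex I assembly factors, which help to build the complex but are not part of it, had 23.3. Of the mitochondrial genes, mt-Co1, the catalytic core of cytochrome c oxidase, had 536 CPM per kilobase over all libraries, and the median over the 13 was 139. These means hide large differences between groups: mt-Co1 had a mean of 2218 CPM per kilobase after cis-3-hexenol, above Cox4i1 at 1107, and 37.2 in the floral-mint controls, below the nuclear median of 130 there. mt-Atp6 had 2412 CPM per kilobase after cis-3-hexenol and 5.00 in the floral-mint controls. The filter on low counts removed 4 nuclear identifiers in every set (Cox6a2, Cox7b2, Cox8c and the second Atp5o) and left 90. All 13 mitochondrial genes were tested in the first 2 sets and 11 in the floral-mint set, where mt-Nd4l was at 0 in all 12 libraries and mt-Atp8 was low.

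The nuclear members together took a narrow share of each library and the mitochondrial genes a very variable one. Over the 36 libraries the nuclear share ran from 1.40% to 2.63% of counts, a 1.88-fold range, and the mitochondrial share from 0.0110% to 2.21%, a 200-fold range. The controls of the 3 sets already differed 45.6-fold in mean mitochondrial share, highest in the octanal set and lowest in the floral-mint set, but 1.29-fold in nuclear share. Differences between sets cannot be told apart from the batch.

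**Figure D1:**
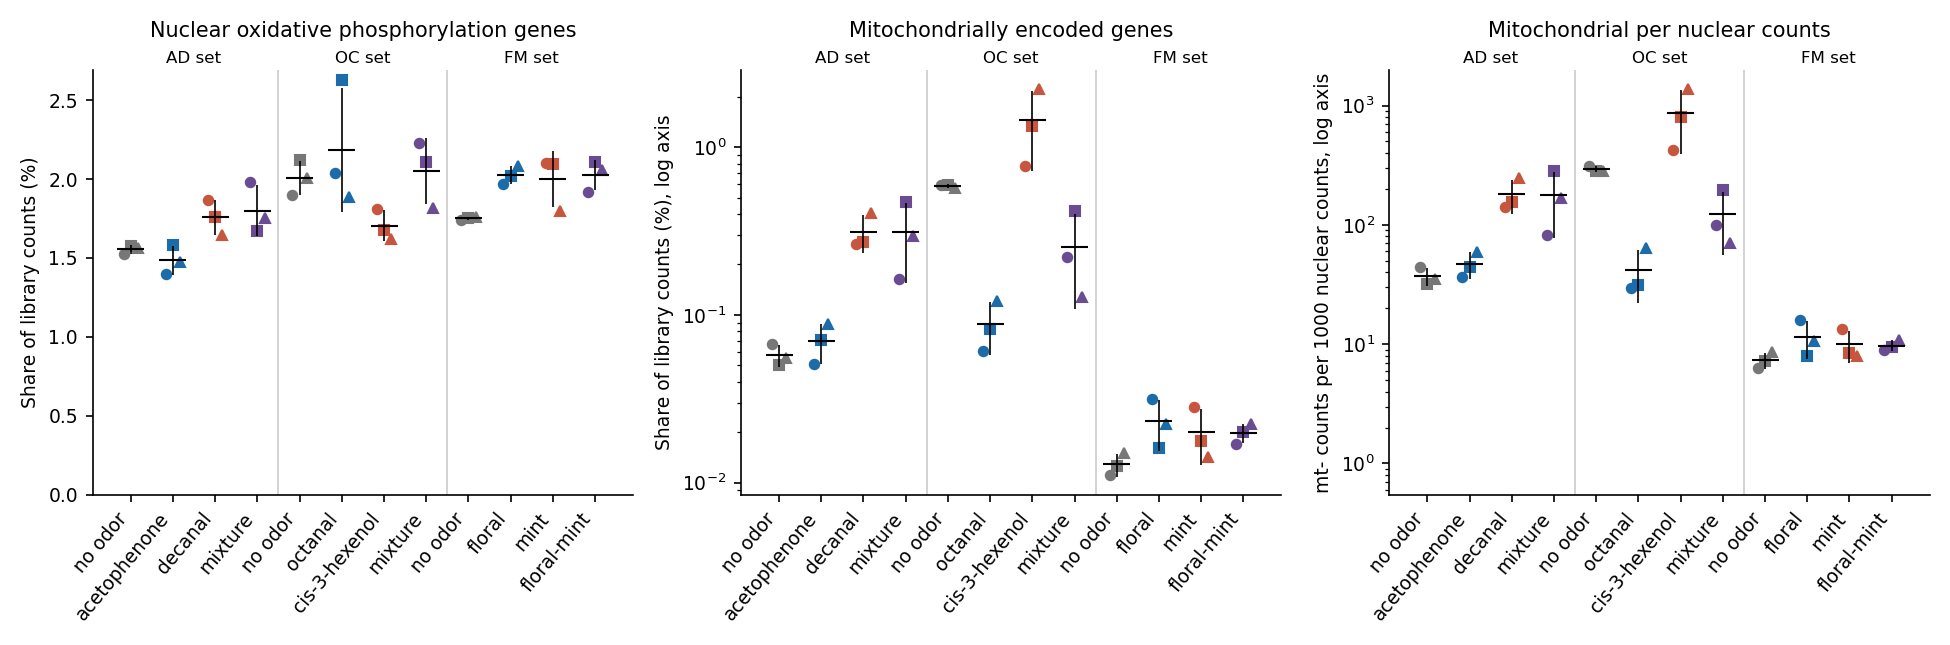
Share of counts per library from nuclear members (left, %), from mitochondrial genes (middle, %, log axis) and mitochondrial counts per 1000 nuclear counts (right, log axis) in the 12 groups; AD is the acetophenone-decanal set, OC the octanal set and FM the floral-mint set. Points are libraries with the marker shape giving the replicate, bars are means and lines SDs (n = 3); nuclear shares stay between 1.40% and 2.63% while mitochondrial shares span 0.0110% to 2.21%.

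In the acetophenone-decanal set, the mitochondrial share was 0.0673%, 0.0505% and 0.0553% in the controls and 0.0507%, 0.0704% and 0.0879% after acetophenone. After decanal it was 0.265%, 0.273% and 0.405%, and after the mixture 0.164%, 0.474% and 0.294%. The acetophenone libraries overlapped the controls, and every decanal and mixture library lay above them, with group means 5.45-fold and 5.38-fold the control mean. The nuclear share was 1.55 ± 0.0274% (SD, n = 3) in controls, 1.49 ± 0.0919% after acetophenone, 1.76 ± 0.112% after decanal and 1.80 ± 0.161% after the mixture.

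After decanal about as many nuclear members were called higher as were not called, and none was called lower. With edgeR's quasi-likelihood test and Benjamini-Hochberg adjustment over all genes, 47 of 90 nuclear members were higher and 0 lower at an adjusted p under 0.05, where 10.8% of all genes tested were higher and 11.5% lower. The median log2 change was 0.39, against 0.00 over all genes, and 78 of 90 values were above 0. The calls fell in complex I (22 of 38), its assembly factors (2 of 8), complex III (3 of 8), complex IV (10 of 15) and complex V (10 of 17), and in none of the 4 genes of complex II. The number of calls fell to 23 without decanal replicate 1 and to 27 without control replicate 1.

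Cox4i1, the ubiquitous form of the fourth cytochrome c oxidase subunit, was at 465, 513 and 506 CPM in controls and 902, 798 and 739 after decanal. Every decanal library was above every control (log2 change 0.72, SE 0.11, adjusted p = 0.00069). Atp5mpl, a small membrane proteolipid of the ATP synthase, moved from 33.7, 35.4 and 36.8 CPM to 66.9, 57.8 and 52.1 (log2 change 0.74, SE 0.12, adjusted p = 0.000943). Ndufa4 rose by a similar amount, from 180, 188 and 178 CPM to 346, 302 and 266 (log2 change 0.74, SE 0.13, adjusted p = 0.00164). The largest nuclear change was that of the complex I assembly factor Ndufaf8, at 0.79, from 12.5, 15.6 and 13.2 CPM to 24.9, 24.6 and 21.9. In contrast, the large catalytic subunits of the ATP synthase were not called: Atp5b had a log2 change of -0.16 (adjusted p = 0.186) and Atp5a1, the alpha subunit, one of -0.13 (adjusted p = 0.255).

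The mixture with decanal gave similar values: 51 of 90 nuclear members were higher (10.9% of all genes) and 1 lower (10.4%), with a median of 0.42. The largest was Ndufc2, a membrane-arm subunit of complex I, at 0.81 (adjusted p = 0.000531), and Cox4i1 reached 951, 769 and 775 CPM (log2 change 0.75, adjusted p = 0.000566). The member that fell was the assembly factor Ndufaf1, from 38, 39.5 and 38.2 CPM to 32, 30.3 and 26.5, without overlap (log2 change -0.38, adjusted p = 0.0164). The calls dropped to 32 without mixture replicate 1 and to 29 without control replicate 1. After acetophenone alone, 1 of 90 was higher (4.22% of all genes) and 0 lower (1.27%, so that 5.49% were called either way), with a median of -0.10. At an unadjusted p under 0.05 there were 7 higher and 15 lower, and DESeq2 called 1 higher and 7 lower. The member called by edgeR was Ndufs1, the largest iron-sulfur subunit of complex I, which was at 194, 190 and 179 CPM in controls and 263, 266 and 244 after acetophenone (log2 change 0.45, SE 0.09, adjusted p = 0.00918). This count was 2 without control replicate 1 and 0 without control replicate 3.

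Mitochondrial genes had large increases after decanal and the mixture, and every call was in the same direction. Decanal had 12 of 13 higher (10.8% of all genes) and the mixture 13 of 13 (10.9%). Medians and ranges here leave out mt-Nd3 and mt-Nd4l, which are at 0 in some libraries. For mt-Nd3 those libraries were in the floral-mint set only. mt-Atp8, also low, was kept, at 9 to 102 counts in this set and 3 to 641 in the octanal set. On that basis the median log2 change was 2.54 (range 2.10 to 2.81) after decanal and 2.55 (2.19 to 2.75) after the mixture. mt-Co1 was at 249, 178 and 212 CPM in controls and 1059, 1059 and 1604 after decanal (log2 change 2.54, SE 0.30, adjusted p = 0.000116). mt-Cytb, the cytochrome b of complex III, went from 66.8, 50.6 and 61.8 CPM to 250, 269 and 392 (2.35, SE 0.33, adjusted p = 0.000334). For both genes the 3 decanal libraries lay far above the 3 controls. mt-Nd6, the complex I subunit that is read from the opposite strand of mitochondrial DNA to the other mitochondrial protein genes, had the highest value, 2.81. Acetophenone had 0 of 13 called in either direction by edgeR (5.49% of all genes), with a median of 0.00. At an unadjusted p under 0.05 there were 0 higher and 1 lower, and DESeq2 called 1 lower.

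**Figure D2:**
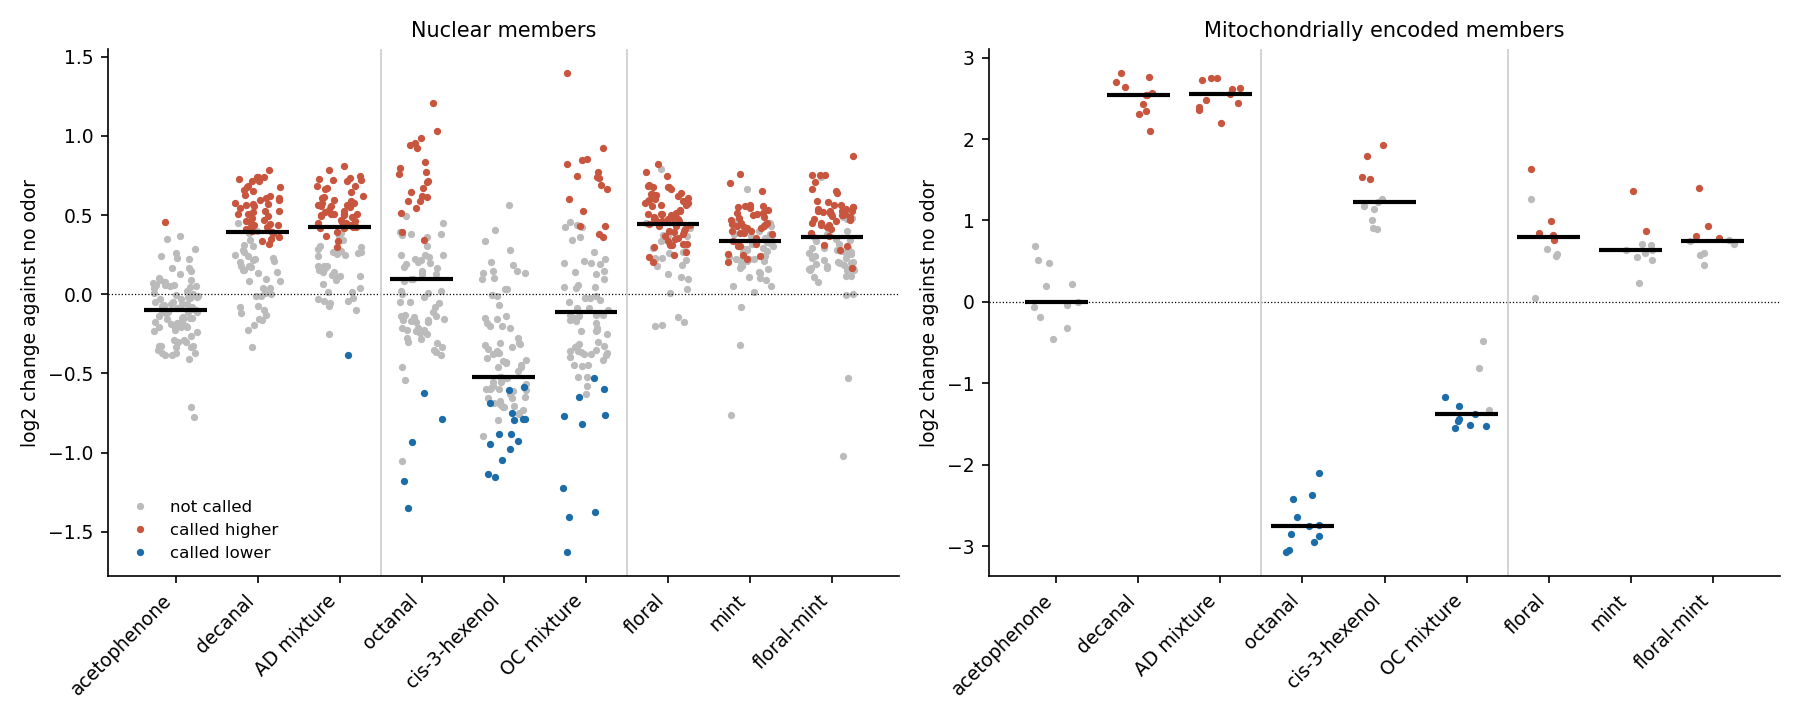
Log2 change of each member against the controls of its set in the 9 odor comparisons, nuclear members on the left and mitochondrial genes on the right without mt-Nd3 and mt-Nd4l. Red points were called higher, blue lower and grey not called (edgeR, adjusted p under 0.05), and bars are medians of the points shown; nuclear medians lie between -0.52 and 0.44 and mitochondrial medians between -2.76 and 2.55.

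In the octanal set the mitochondrial share moved the other way after octanal. It was 0.594%, 0.599% and 0.570% in the controls, and 0.0606%, 0.0827% and 0.121% after octanal, so that the control mean was 6.66-fold the octanal mean. After cis-3-hexenol it was 0.774%, 1.35% and 2.21%, 2.46-fold the control mean, and after the mixture 0.222%, 0.415% and 0.127%, where the control mean was 2.30-fold higher. No library of these 3 groups overlapped the controls. The nuclear share was 2.01 ± 0.109% in controls, 2.18 ± 0.393% after octanal, 1.70 ± 0.0976% after cis-3-hexenol and 2.05 ± 0.209% after the mixture (SD, n = 3). Octanal replicate 2 had the highest nuclear share of all libraries, 2.63%.

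Octanal had nuclear members called in both directions, as it had among all genes tested. It had 22 of 90 higher (17.9% of all genes tested) and 5 lower (14.4%), with a median of 0.09. The members called higher were mostly catalytic and core subunits and assembly factors: 5 of 38 in complex I, 4 of 8 assembly factors, 3 of 4 in complex II, 3 of 8 in complex III, 1 of 15 in complex IV and 6 of 17 in complex V. Without octanal replicate 2 the count was 42, with 17 higher and 25 lower, and the median turned to -0.19.

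The largest octanal increase of a nuclear member was that of Ndufs1, from 60.2, 75.2 and 60.9 CPM in controls to 178, 125 and 150 CPM. Every octanal library was above every control, a 2.31-fold increase (log2 change 1.21, SE 0.17, adjusted p = 9.68e-05). Ndufaf7, a methyltransferase that acts in complex I assembly, moved from 40.0, 39.4 and 36.5 CPM to 80.7, 77.0 and 62.2 (0.92, adjusted p = 0.000211). Ndufaf1 had a log2 change of 1.03. Atp5b was at 690, 796 and 711 CPM in controls and 1656, 1413 and 1278 after octanal, again without overlap (0.98, SE 0.16, adjusted p = 0.000297). Atp5a1 had 0.94 (adjusted p = 0.000426), and the 2 core proteins of complex III, Uqcrc2 and Uqcrc1, had 0.95 and 0.76 (adjusted p = 0.0003 and 0.00343). Ndufv1, the subunit that binds NADH, had 0.84. Cox4i1, in contrast, was at 1012, 1600 and 839 CPM against 1031, 1246 and 1173 in controls, overlapping, with a log2 change of 0.00.

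The 5 members that octanal lowered were Cox8b, Ndufa4l2, Cox6b2, Ndufaf8 and Ndufs5. Ndufs5, an accessory subunit of complex I, was at 129, 139 and 141 CPM in controls and 70.4, 121 and 74.3 after octanal, with replicate 2 nearest the controls (log2 change -0.62, adjusted p = 0.0204). Ndufaf8 went from 55.8, 52.1 and 66.3 CPM to 26.3, 45.1 and 29.6 (-0.79, adjusted p = 0.00605). Cox8b and Cox6b2 are tissue forms of complex IV subunits and are given with their partners further on.

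The mixture of this set had 17 of 90 nuclear members higher (17.7% of all genes) and 10 lower (14.8%), with a median of -0.11, which was 0.04 without mixture replicate 3. Ndufs1 was at 167, 159 and 190 CPM, a 2.63-fold increase (log2 change 1.40, adjusted p = 3.07e-05), and Atp5b at 1396, 1281 and 1295 CPM (0.85, adjusted p = 0.000908). Ndufaf7 rose by 0.77 on the log2 scale (adjusted p = 0.000854). Uqcr11, a small subunit of complex III, fell from 240, 246 and 281 CPM to 174, 156 and 119 (-0.77, adjusted p = 0.0159).

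cis-3-hexenol had 0 of 90 nuclear members higher (2.58% of all genes) and 15 lower (3.16%, or 5.74% either way), with a median of -0.52. At an unadjusted p under 0.05 there were 3 higher and 52 lower, and DESeq2 called 1 higher and 35 lower. The 15 included 6 of complex I, 3 each of complexes III and V, 2 of complex IV and 1 assembly factor, Ndufaf3, at -0.59. Atp5g1, 1 of 3 genes for the c ring, moved from 198, 229 and 235 CPM to 138, 115 and 106 (-0.88, SE 0.17, adjusted p = 0.00865). Ndufs5 moved from 129, 139 and 141 CPM to 76.3, 67.0 and 64.3 (-0.98, adjusted p = 0.00976), and Uqcr11 to 138, 108 and 104 (-1.13, adjusted p = 0.011). The libraries did not overlap for these genes. The number of calls was sensitive to single libraries: it was 7, 0 and 0 when cis-3-hexenol replicate 1, 2 or 3 was left out, and 8, 4 and 4 for control replicates 1, 2 and 3.

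Mitochondrial genes fell together after octanal and after the mixture, and rose after cis-3-hexenol where called. Octanal had 0 of 13 higher (17.9% of all genes) and 12 lower (14.4%), with a median log2 change of -2.76 (range -3.08 to -2.10). mt-Co1 went from 1695, 1659 and 2109 CPM to 259, 339 and 461 (-2.37, SE 0.35, adjusted p = 0.000132), and mt-Cytb from 784, 758 and 793 to 96.1, 105 and 174 (-2.64, SE 0.38, adjusted p = 0.000106). The mixture had 9 of 13 lower (14.8% of all genes) and a median of -1.38. There mt-Cytb was at 273, 569 and 193 CPM (-1.17, adjusted p = 0.0207) and mt-Co1, not called, at 1031, 1589 and 479 (-0.82, adjusted p = 0.0697). Without mixture replicate 1, and again without replicate 3, 2 were called. cis-3-hexenol had 4 of 13 higher (2.58% of all genes): mt-Nd2 (1.51), mt-Nd5 (1.54), mt-Atp6 (1.79) and mt-Atp8 (1.93), with a median of 1.22. mt-Atp6, the subunit that forms the proton channel of the ATP synthase, was at 476, 510 and 434 CPM in controls and 696, 1296 and 2935 after cis-3-hexenol. The 3 libraries lay above the controls and were far apart from each other, with replicate 3 highest. None of the 4 remained called without cis-3-hexenol replicate 2 or 3, or without control replicate 1, 2 or 3.

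In the floral-mint set every member that was called after an odor was called higher. The mitochondrial share was 0.0110%, 0.0125% and 0.0150% in the controls, 0.0314%, 0.0160% and 0.0223% after floral odor, 0.0283%, 0.0177% and 0.0143% after mint, and 0.0171%, 0.0200% and 0.0223% after floral-mint. The mint libraries overlapped the controls and the others did not, with means 1.80-fold, 1.56-fold and 1.54-fold the control mean. The nuclear share was 1.75 ± 0.00978% in controls and 2.02 ± 0.0570%, 2.00 ± 0.176% and 2.03 ± 0.0959% after the 3 odors (SD, n = 3).

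Floral odor had 64 of 90 nuclear members higher (8.7% of all genes) and 0 lower (5.35%), with a median of 0.44. These were 31 of 38 in complex I, 3 of 8 assembly factors, 1 of 4 in complex II, 5 of 8 in complex III, 11 of 15 in complex IV and 13 of 17 in complex V. Mint had 40 higher (7.1%) and 0 lower (4.07%), with a median of 0.33, and floral-mint 43 higher (6.42%) and 0 lower (3.22%, or 9.64% either way), with a median of 0.36. The counts depended on single libraries. Floral fell to 26 without floral replicate 3 and 28 without control replicate 1. Mint was 9, 7 and 74 without mint replicates 1, 2 and 3 and 12, 21 and 13 without control replicates 1, 2 and 3. Floral-mint was 13 and 14 without its replicates 2 and 3, and 16 without control replicate 1 or control replicate 3. With the replicate number as a block, mint had 23.

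Ndufv3, a small accessory subunit beside the NADH-binding site of complex I, had the smallest p of the nuclear members in all 3 odor groups of this set. It was at 168, 176 and 162 CPM in controls, 268, 282 and 299 after floral odor, 310, 309 and 239 after mint and 251, 301 and 300 after floral-mint. All 9 odor libraries were above the 3 controls, with log2 changes of 0.75, 0.76 and 0.75 (adjusted p = 0.000404, 0.000296 and 0.000408). Atp5mpl went from 68.1, 65.0 and 57.5 CPM to 100, 112 and 125 after floral odor (0.82, adjusted p = 0.00142) and to 103, 128 and 119 after floral-mint (0.88, adjusted p = 0.000893). Uqcrh, the hinge protein of complex III, had 0.50 after mint (adjusted p = 0.00354). Cox4i1 was at 333, 354 and 367 CPM in controls and 490, 492 and 575 after floral odor (0.56, adjusted p = 0.00446). Atp5b, which was not called after decanal, was called after mint with a small change, from 1842, 1900 and 1813 CPM to 2038, 2162 and 2193 after mint (0.20, adjusted p = 0.00904). It was also called higher after floral-mint, and was not called after floral odor.

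**Figure D3:**
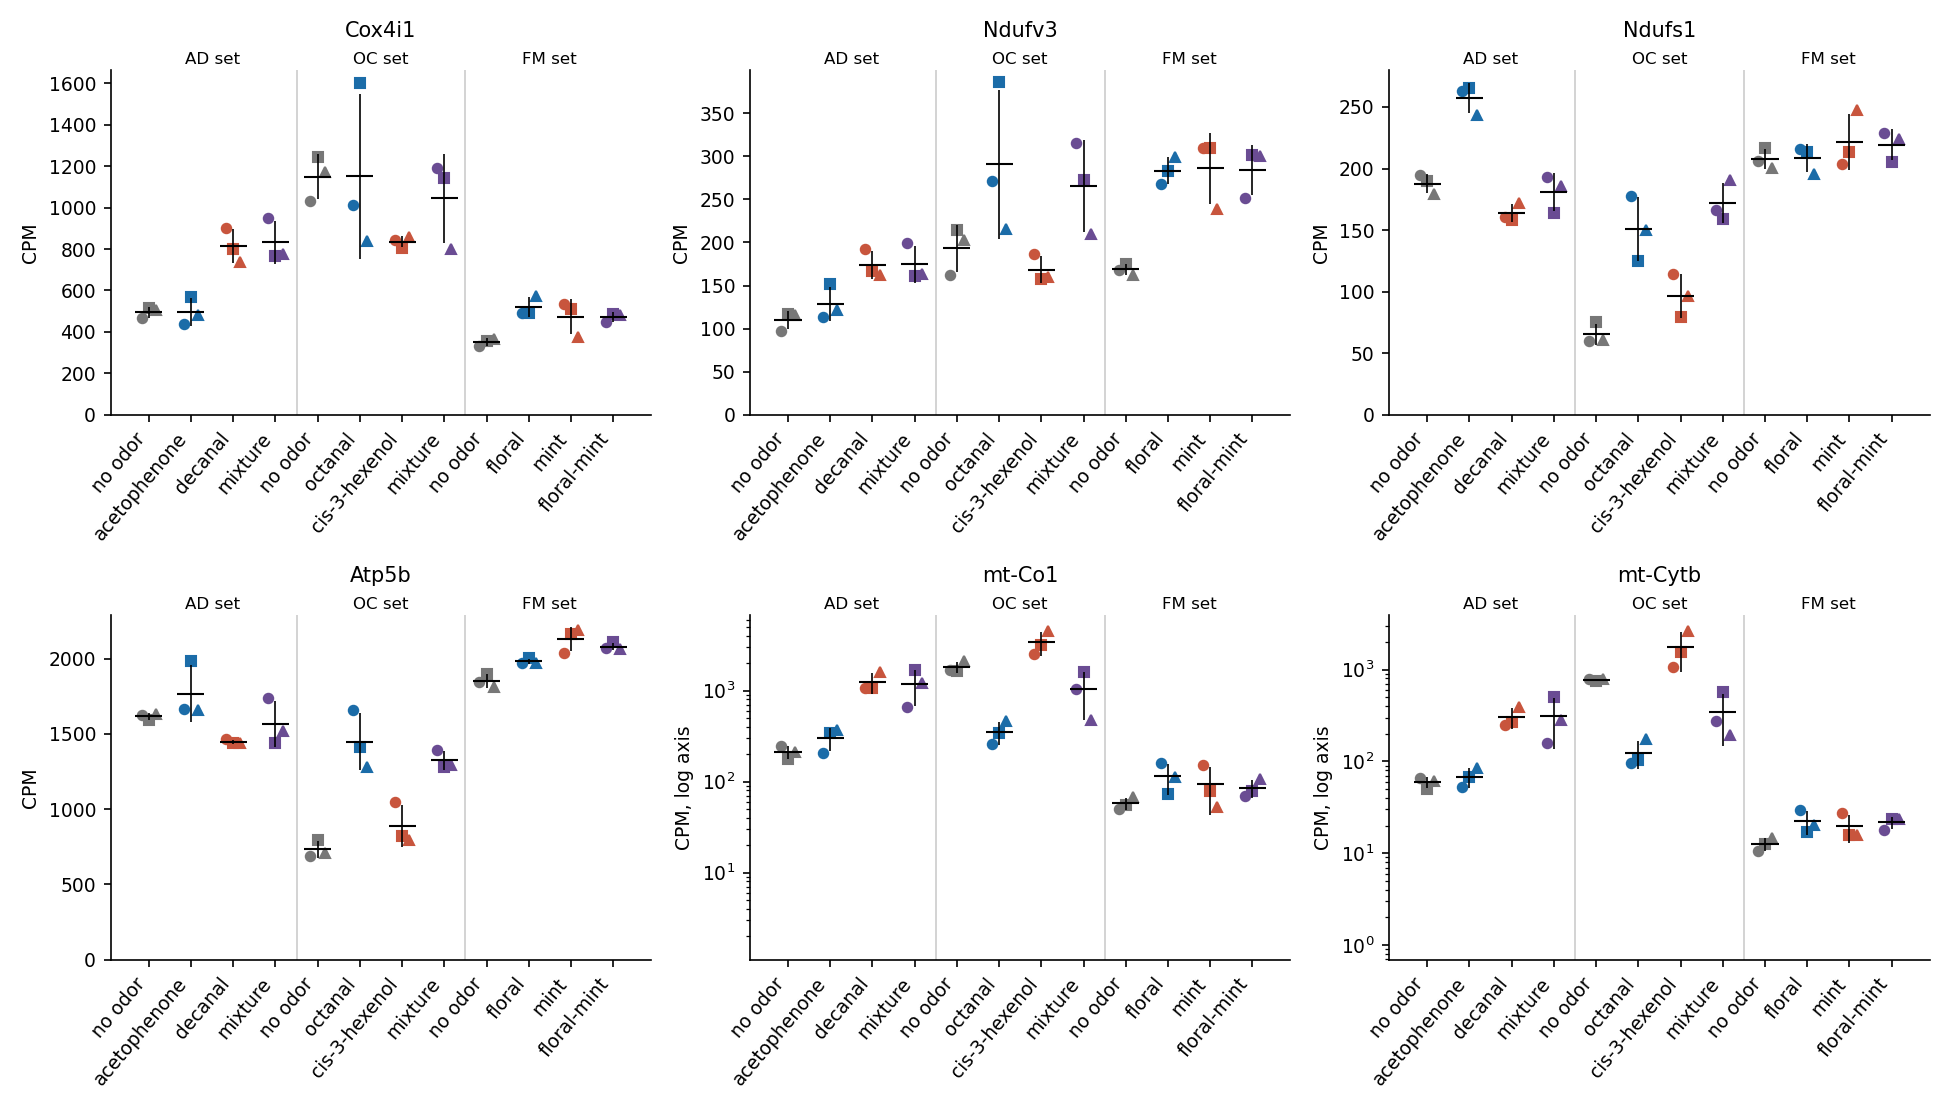
CPM per library of Cox4i1, Ndufv3, Ndufs1, Atp5b, mt-Co1 and mt-Cytb in the 12 groups, the last pair on log axes. Points are libraries with the marker shape giving the replicate, bars are means and lines SDs (n = 3); Cox4i1 lies between 739 and 902 CPM after decanal and between 465 and 513 in its controls, Ndufs1 between 125 and 178 after octanal and between 60.2 and 75.2 in its controls, and mt-Co1 differs widely between sets.

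Fewer mitochondrial genes were called in this set, where their counts were lowest, from 2550 per library in all. Floral odor had 6 of 11 higher, mint 3 and floral-mint 4, and 0 were lower. Over all genes tested, 8.7%, 7.1% and 6.42% were higher and 5.35%, 4.07% and 3.22% lower. mt-Co3, the third core subunit of cytochrome c oxidase, was called in all 3 groups. It was at 9.04, 10.7 and 15 CPM in controls, 43.1, 22.5 and 42.3 after floral odor, 35.2, 27.7 and 25.9 after mint and 26.8, 31.9 and 32.8 after floral-mint, without overlap (log2 change 1.63, 1.36 and 1.40, adjusted p = 0.000418, 0.00168 and 0.00154). mt-Nd4 was also called in all 3, at 0.76, 0.87 and 0.93. mt-Co1 was called after floral odor alone, from 50, 55.3 and 67 CPM to 158, 73.0 and 112 (1.00, adjusted p = 0.0479). mt-Nd3 had 0 counts in the 3 controls, in mint replicate 3 and in floral-mint replicate 3, and 11 to 21 counts in the other 7 libraries; no fold is given. Floral calls were 2 without floral replicate 1, 1 without floral replicate 3 and 1, 2 and 3 without control replicates 1, 2 and 3. Mint calls were 1 without mint replicate 1 or control replicate 1 and 8 without mint replicate 3. Floral-mint calls were 2 without its replicate 2 or 3 and 1, 2 and 2 without control replicates 1, 2 and 3.

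Across the 9 odor comparisons, 78 of 90 nuclear members were called higher at least once and 20 lower at least once, with 12 called in both directions. These are 86.7%, 22.2% and 13.3% of the 90, beside 32.7%, 34.8% and 7.64% of the 18435 genes tested in all 3 sets. The members called higher most often, in 6 comparisons (decanal and its mixture, octanal, and all 3 of the floral-mint set), were Ndufv3, Uqcrfs1, Cox5a, Atp5o and Ndufaf5. They come from complexes I, III, IV and V and from the assembly factors. Uqcrfs1, the Rieske iron-sulfur protein of complex III, had log2 changes of 0.35 after decanal, 0.51 after octanal and 0.46 after floral odor. Cox5a, a matrix-side subunit of cytochrome c oxidase, was at 261, 305 and 277 CPM in octanal-set controls and 388, 617 and 316 after octanal (0.65, adjusted p = 0.0302), and had 0.52 after decanal and 0.62 after floral odor. Atp5o, the stalk protein that joins the catalytic head of the ATP synthase to its membrane part, had 0.36, 0.62 and 0.48. Cox6b2, Cox8b and Ndufs5 were called lower most often, in 3 comparisons, all in the octanal set. Cox7a1, Ndufaf2, Ndufaf6 and Sdhd were not called in any of the 9. Of the mitochondrial genes 12 of 13 were called in both directions.

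Complex II differs from the other complexes in that all 4 of its subunits are nuclear and take part in the citric acid cycle as succinate dehydrogenase. It was called mainly in the octanal set. Sdha, the flavoprotein that oxidizes succinate, was at 167, 163 and 170 CPM in controls, 340, 205 and 274 after octanal and 316, 303 and 327 after the mixture. Neither group overlapped the controls, with log2 changes of 0.71 (adjusted p = 0.00751) and 0.92 (adjusted p = 0.0014). Sdhb, the iron-sulfur subunit, was at 328, 367 and 383 CPM in controls and 596, 738 and 508 after octanal (0.77, adjusted p = 0.00418), and had 0.60 after the mixture (adjusted p = 0.0176). Sdhb was the member of this complex called after floral odor (0.38, adjusted p = 0.0134) and mint (0.35, adjusted p = 0.022). Of the membrane anchors, Sdhc had 0.40 and 0.38 in the octanal comparisons (adjusted p = 0.0295 and 0.0343), and Sdhd had 0.25 after octanal (adjusted p = 0.194).

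Several complex IV subunits exist as a common form and a form best known from muscle, heart, testis or lung. The tissue forms were low, and none was called higher in any of the 9 odor comparisons, Cox7a1 included. Cox8b, the heart and muscle form of subunit 8, was at 17.7, 37.8 and 32.2 CPM in octanal-set controls, 9.96, 12.1 and 12.3 after octanal, 14.9, 13.1 and 14.5 after cis-3-hexenol and 12.8, 11.9 and 8.42 after the mixture. All 9 odor libraries were below the lowest control (log2 change -1.35, -1.05 and -1.41, adjusted p = 0.000624, 0.0195 and 0.00045). Cox6b2, the testis form of subunit 6B, was at 12.2, 16 and 11.8 CPM in controls and 5.12, 6.09 and 4.23 after the mixture (-1.37, adjusted p = 0.00167), and had -0.93 after octanal and -1.16 after cis-3-hexenol. Cox4i2, the lung form of subunit 4, had -1.63 after the mixture (SE 0.46, adjusted p = 0.0127) at no more than 2.7 CPM in the set. Ndufa4l2, a relative of Ndufa4 known from hypoxia, had -1.18 after octanal (adjusted p = 0.0425, libraries overlapping) and -1.22 after the mixture (adjusted p = 0.0351). The common forms were called in the other sets instead: Cox8a had 0.61 after decanal and 0.56 after floral odor, Cox6a1 0.50 and 0.53, Cox7a2 0.52 and 0.60 and Cox7b 0.38 and 0.51. Cox6b1 had 0.42 after the acetophenone-decanal mixture and 0.58 after floral odor.

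The changes of nuclear members differed with the length of their messages. Lengths are those of the principal transcripts in the annotation and ran from 360 to 3632 bases, with a median of 810. Of 54 members under 1000 bases, decanal had 38 higher and 0 lower, octanal 2 higher and 5 lower and cis-3-hexenol 0 higher and 12 lower. Of 20 members of 1500 bases or more, decanal had 3 higher, octanal 14 higher and 0 lower and cis-3-hexenol 0 higher and 1 lower. The median log2 changes of the short and the long members were 0.47 and 0.12 after decanal, -0.14 and 0.59 after octanal, -0.61 and 0.10 after cis-3-hexenol and 0.50 and 0.23 after floral odor. Spearman's rho between length and log2 change over the 90 members was negative for decanal (-0.53) and floral odor (-0.50) and positive for octanal (0.61), acetophenone (0.68) and cis-3-hexenol (0.66). Genes share libraries and are not independent, so these are descriptions without a test.

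**Figure D4:**
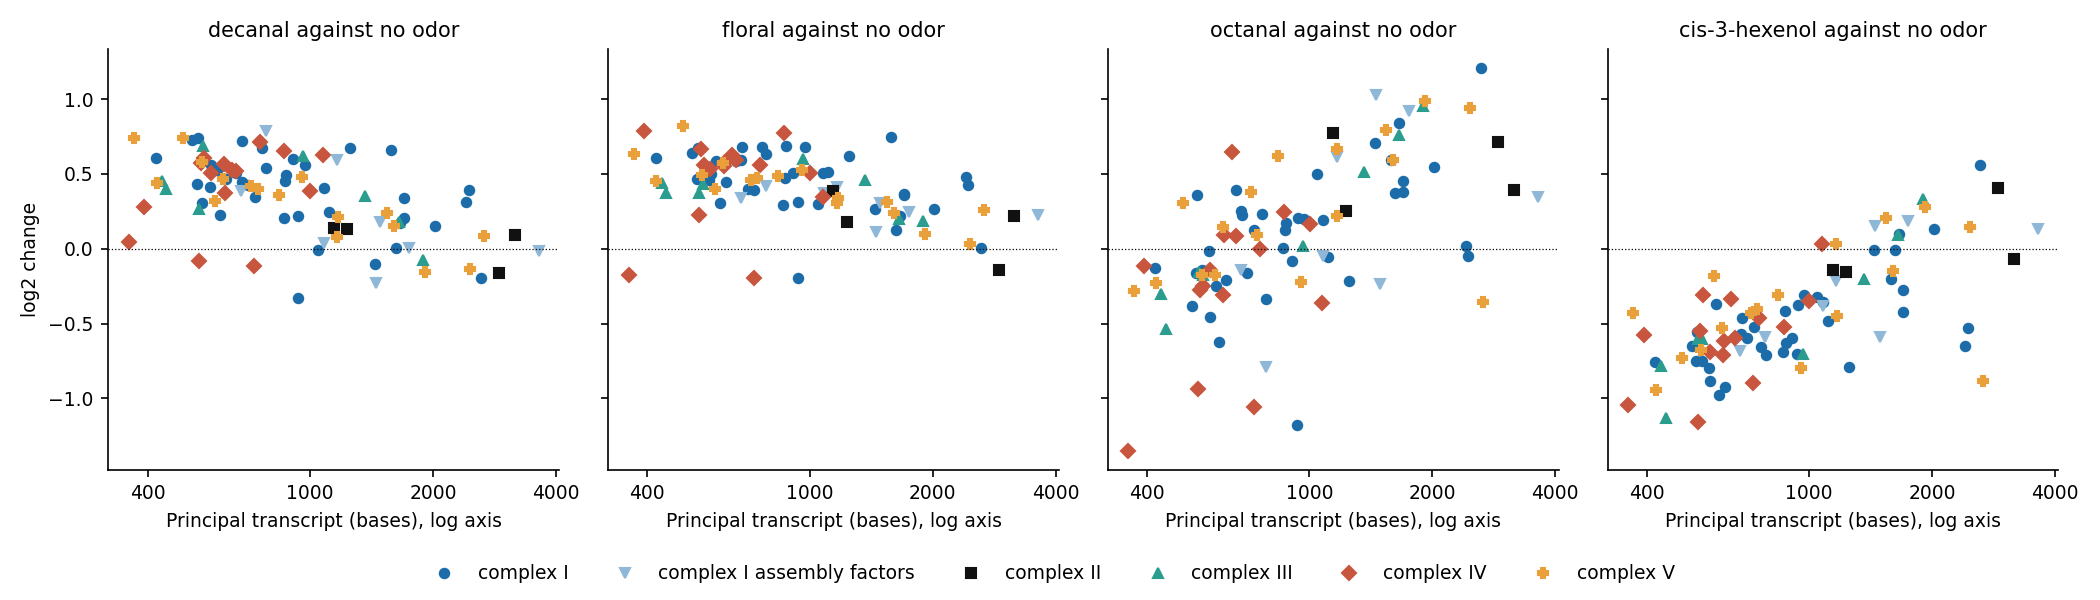
Log2 change of each nuclear member against the length of its principal transcript (bases) after decanal, floral odor, octanal and cis-3-hexenol, with the symbol giving the complex. Short members are highest after decanal and floral odor (medians 0.47 and 0.50 under 1000 bases) and lowest after octanal and cis-3-hexenol (-0.14 and -0.61).

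Other short protein-coding genes moved in the same directions. Among 550 other genes under 1000 bases with at least 10 CPM, decanal had 206 higher and 5 lower (median 0.31), octanal 64 higher and 170 lower (-0.18), cis-3-hexenol 1 higher and 159 lower (-0.48) and floral odor 204 higher and 2 lower (0.30). Over all 9869 other genes at that level rho was -0.16 (decanal), -0.32 (floral odor), -0.02 (octanal), 0.34 (acetophenone) and 0.36 (cis-3-hexenol). A set of 410 abundant genes within the members' middle range of lengths, without ribosomal protein genes, had medians of 0.27 after decanal, 0.08 after octanal, -0.37 after cis-3-hexenol and 0.28 after floral odor, beside 0.39, 0.09, -0.52 and 0.44 for the nuclear members. RNA integrity was not measured in the files, and the part of message length in the members' changes was not tested.

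The odors of each set were also compared directly. In the first set the mixture against decanal had 0 of 90 nuclear members called in either direction by edgeR (0.251% of all genes higher, 0.0359% lower), with 0 at an unadjusted p under 0.05 and 0 by DESeq2, and a median of 0.04. The mixture against acetophenone had 62 higher and 3 lower (11.3% and 14.4% of all genes), with Ndufs1 (-0.51), Ndufaf1 (-0.44) and Sdha (-0.34) lower. Acetophenone against decanal had 6 higher and 60 lower (16.5% and 12.9%), with a median of -0.50. The 6 were Ndufs1 (0.65), Sdha (0.43), Uqcrc2 (0.32), Atp5a1 (0.30), Atp5b (0.29) and Ndufaf1 (0.29), and the lowest value was that of Ndufaf8, -1.12. All 13 mitochondrial genes were higher in the mixture than after acetophenone and lower after acetophenone than after decanal, and 0 of 13 differed between mixture and decanal by edgeR, with 0 at an unadjusted p under 0.05 and 0 by DESeq2.

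In the octanal set the mixture against octanal had 0 of 90 nuclear members called by edgeR (0.0715% and 0% of all genes), with 0 at an unadjusted p under 0.05 and 0 by DESeq2; the median was -0.16 and 84 of 90 values were negative. Leaving out mixture replicate 3 gave 1 call over both kinds. The mitochondrial genes had 0 of 13 called there, with 11 higher at an unadjusted p under 0.05 and 0 by DESeq2, and a median of 1.47. Octanal against cis-3-hexenol had 48 nuclear members higher and 0 lower (12% and 8.98% of all genes), with a median of 0.58, and 13 of 13 mitochondrial genes lower, with a median of -3.97. The count over both kinds, 61, was 28 without replicate 2 of cis-3-hexenol and 26 without its replicate 3. The mixture against cis-3-hexenol had 22 nuclear members higher and 0 lower (7.86% and 5.03%) and 12 mitochondrial genes lower. That total of 34 was 16 without mixture replicate 1, 12 without replicate 2 of cis-3-hexenol and 9 without its replicate 3. In the floral-mint set the 3 direct comparisons had 0 members called by edgeR and by DESeq2 (floral-mint against floral 0.115% higher and 0.00521% lower of all genes, against mint 0.0625% and 0.0417%, floral against mint 0.13% and 0.224%). At an unadjusted p under 0.05, floral-mint against floral had 1 nuclear member lower and 1 mitochondrial gene higher, floral-mint against mint 0, and floral against mint 1 nuclear member lower.

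Octanal and decanal are straight-chain aldehydes that differ in chain length. Their responses, each against the controls of its own set, were compared as an interaction in a fit of all 36 libraries. The octanal response was higher than the decanal response for 17 of 90 nuclear members and lower for 27 (18.9% and 15.2% of all genes), and lower for all 13 mitochondrial genes. The highest differences in log2 change were those of Ndufs1 (1.39), Ndufaf1 (1.25), Atp5b (1.14) and Atp5a1 (1.07), and the lowest those of Ndufaf8 (-1.58), Cox8b (-1.40), Ndufa3 (-1.11), Atp5k (-1.03) and Ndufa2 (-1.02). The odorants were given in different sets, so odorant and set cannot be told apart.

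Related genes from lists outside the rule gave counts as follows. As shares of all genes tested, decanal had 10.8% higher and 11.5% lower, and octanal 17.9% and 14.4%. The shares were 2.58% and 3.16% for cis-3-hexenol and 8.7% and 5.35% for floral odor. Of the assembly factors of other names, decanal had 15 of 41 higher and 2 lower, octanal 11 of 42 higher and 3 lower, cis-3-hexenol 1 and 3 of 42, and floral odor 9 and 1 of 41. Of 16 electron carriers and transporters, octanal had 7 higher and 0 lower, among them the adenine nucleotide carrier Slc25a5 (1.39), the phosphate carrier Slc25a3 (0.87) and cytochrome c, Cycs (0.67), and floral odor had 8 higher and 0 lower, with Cycs at 0.49. Of 15 genes that copy, transcribe or process mitochondrial DNA and RNA, decanal had 0 higher and 1 lower, Elac2 (-0.58). Octanal had 4 of those 15 higher (Mterf3, Trmt10c, Polg2 and Tefm, 0.58 to 0.85) and 1 lower (Twnk, -0.56), and floral odor 1 and 1. Of 10 regulators of mitochondrial biogenesis, octanal had 3 higher: Ppargc1a, a coactivator that drives respiratory genes, at 1.75, Nfe2l2 at 1.07 and Nrf1 at 0.70. Decanal had 1 higher, Ppargc1b (0.51), and 1 lower, Gabpb1 (-0.47).

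The 2 mitochondrial ribosomal RNAs, which the rule does not take in, moved with the mitochondrial messages. Their summed share had a mean 5.73-fold the control mean after decanal, 5.68-fold after its mixture, 0.166-fold after octanal, 0.258-fold after the octanal mixture and 1.70-fold after floral odor. After cis-3-hexenol it was 1.5-fold and overlapped the controls.

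Cell type markers moved in the same comparisons. As shares of all genes tested, acetophenone had 4.22% higher and 1.27% lower, decanal 10.8% and 11.5%, and octanal 17.9% and 14.4%. The shares were 2.58% and 3.16% for cis-3-hexenol and 8.7% and 5.35% for floral odor. The red blood cell list (9 genes, none at 0) summed to 15574 to 21048 CPM in the controls of the first set, 39484 to 42271 after decanal and 2573 to 13173 after acetophenone. In the octanal set the sums were 78283 to 92852 CPM in controls, 7469 to 23234 after octanal and 19594 to 28203 after cis-3-hexenol, with 9 of 9 genes lower in both. In the floral-mint set they were 30397 to 33017 CPM in controls and 38458 to 74186 after floral odor. These sums ran with the mitochondrial share after decanal, octanal and floral odor, and against it after cis-3-hexenol. After acetophenone the sums lay below the controls and the mitochondrial share overlapped them. The mature olfactory neuron list (15 genes) was 15 of 15 higher after octanal, 13 after acetophenone, 11 after cis-3-hexenol, 6 after decanal and 5 after floral odor, so that the summed level in octanal libraries, 21163 to 30210 CPM, lay above that in their controls, 8353 to 10847. Neutrophil markers (7 genes) had 3 higher after decanal and 7 lower after octanal, and sustentacular cell markers (8 genes) had 5 lower after decanal. The cytosolic ribosomal protein genes had 73 of 83 higher after decanal and 50 of 84 lower after octanal. The part of these cell types and gene groups in the members' changes was not tested.

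**Figure D5:**
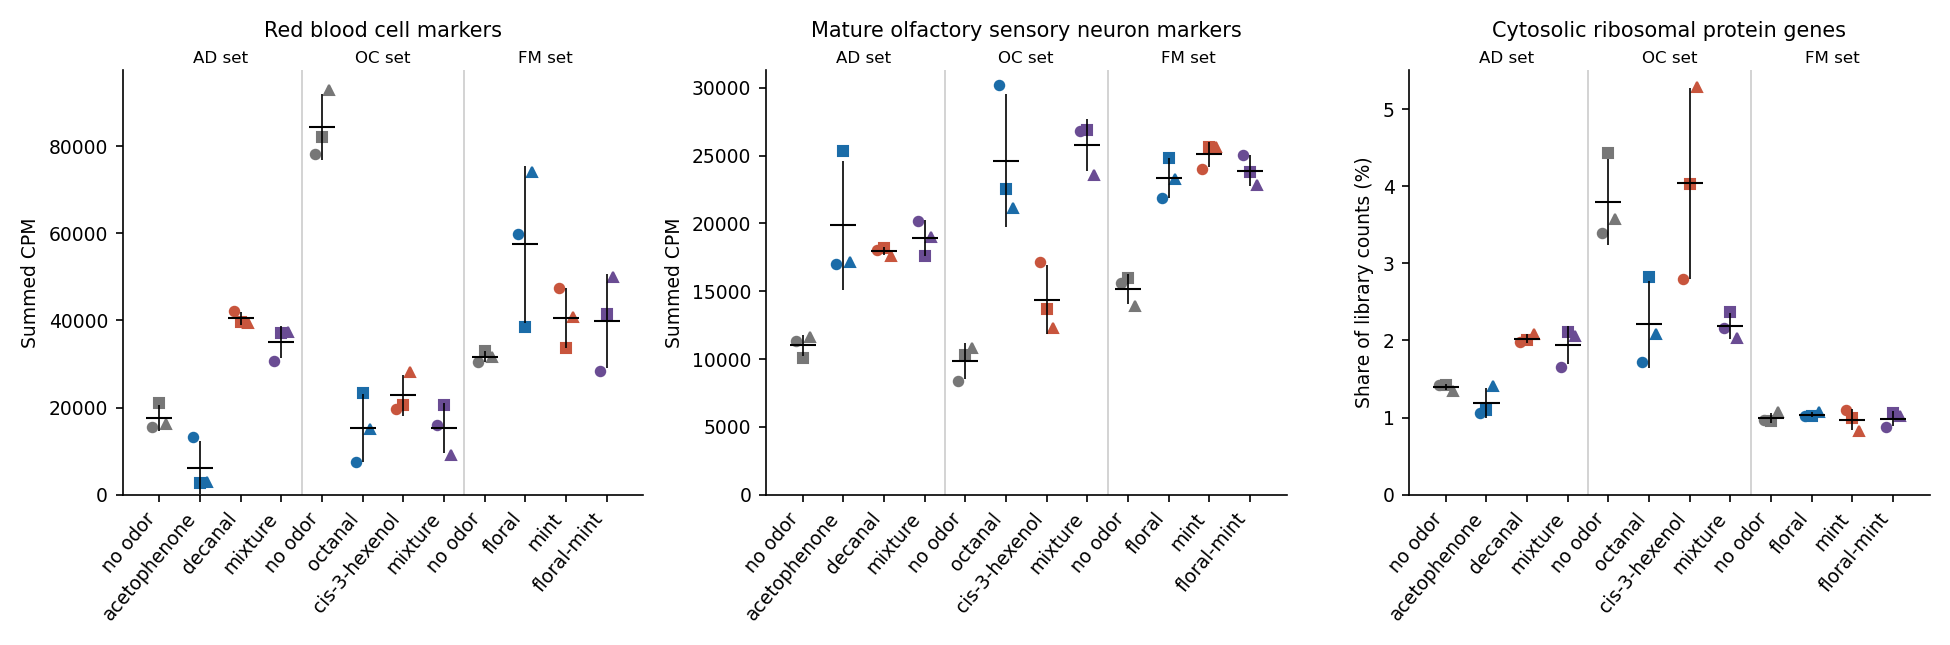
Summed CPM of the red blood cell list and of the mature olfactory neuron list, and share of counts (%) from cytosolic ribosomal protein genes, in the 12 groups. Points are libraries with the marker shape giving the replicate, bars are means and lines SDs (n = 3); red blood cell sums are highest in the octanal-set controls (78283 to 92852 CPM) and neuron sums lie above their controls in octanal libraries (21163 to 30210 against 8353 to 10847 CPM).

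Promoters of nuclear members were searched because respiratory genes are known to be driven by shared factors, NRF1 and the GABP complex among them, and because members moved together in several groups. RefSeq promoters (build GRCm38.p6, 250 bases before the transcription start) were matched for 75 of 93 nuclear symbols. On either strand, the palindromic NRF1 motif, which is the first run of capitals in the Cox6a1 promoter printed here, was in 5 of 75 (6.67%), against 1.25% of 16500 promoters of protein-coding genes. The GABPA motif CCGGAAG was in 14 (18.7%), against 10.5%. The motif TCAAGGTCA of ESRRA was in 1 (1.33%, against 0.37%) and the YY1 motif AAGATGGCG in 1 (1.33%, against 0.873%). The promoters of 4 members are shown 5′ to 3′ on the gene's strand, with motif matches in capitals: Cox6a1 at chr5:115348959-115349208 (minus strand) has an NRF1 and a GABPA match, Uqcrh at chr4:116075071-116075320 (minus strand) a GABPA match, and Ndufv3 at chr17:31519865-31520114 (plus strand) and Atp5b at chr10:128083057-128083306 (plus strand) none. Cox6a1, Uqcrh and Ndufv3 were called higher after decanal and floral odor, and Ndufv3 also after octanal. Atp5b is among several ATP synthase genes called higher after octanal, and was also called after the octanal mixture, mint and floral-mint. A match is a description of the sequence and not a measured binding site.
Cox6a1: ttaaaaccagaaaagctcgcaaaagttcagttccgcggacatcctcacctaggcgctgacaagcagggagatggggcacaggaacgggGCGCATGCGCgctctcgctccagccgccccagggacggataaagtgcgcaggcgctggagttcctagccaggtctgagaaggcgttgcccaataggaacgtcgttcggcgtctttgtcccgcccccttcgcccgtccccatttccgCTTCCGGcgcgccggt
Uqcrh: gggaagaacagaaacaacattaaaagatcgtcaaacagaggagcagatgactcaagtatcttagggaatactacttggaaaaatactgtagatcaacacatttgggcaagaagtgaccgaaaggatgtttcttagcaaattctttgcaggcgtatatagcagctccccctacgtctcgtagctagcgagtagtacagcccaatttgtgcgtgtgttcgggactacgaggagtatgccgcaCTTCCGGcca
Ndufv3: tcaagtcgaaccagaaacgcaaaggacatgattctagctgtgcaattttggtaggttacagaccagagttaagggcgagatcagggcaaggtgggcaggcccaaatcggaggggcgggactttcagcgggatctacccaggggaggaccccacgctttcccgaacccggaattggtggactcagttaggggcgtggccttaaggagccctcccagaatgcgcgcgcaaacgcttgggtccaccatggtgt
Atp5b: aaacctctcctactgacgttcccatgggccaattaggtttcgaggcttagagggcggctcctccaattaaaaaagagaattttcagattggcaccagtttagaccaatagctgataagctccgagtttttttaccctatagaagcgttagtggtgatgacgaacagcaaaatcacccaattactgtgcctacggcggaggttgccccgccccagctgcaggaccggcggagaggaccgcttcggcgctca
The NRF1 match of Cox6a1 starts 162 bases before the transcription start and its GABPA match 16, and that of Uqcrh 10. Ndufv3, with no match to any of the motifs searched in its window, was called in 6 of 9 odor comparisons.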

How the data were processed

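Expected counts per gene were deposited by the authors in 3 tables, 1 per set of 12 libraries; between 11.1% and 16.4% of the values per library are fractional. The submitters' processing notes name the build GRCm39, the aligner STAR (2.7.10b), the quantifier Salmon (1.10.1) and R (4.4.2); the annotation and the step that produced the estimated counts are not given in the sources used here. Libraries are poly(A)-selected and stranded per the labels' protocols. Counts were rounded to whole numbers. Symbols came from GENCODE vM21 and named 52081 of 57010 identifiers; the other 4929 held 0.275% to 0.642% of counts and were kept in the tests. The members and the gene lists were chosen with earlier results of these data known.

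Each set was fitted with edgeR 4.0.16 (R 4.3.3, limma 3.58.1) over its 4 groups: filterByExpr (minimum count 10, total 15), TMM scaling, glmQLFit and glmQLFTest, prior count 0.125, with Benjamini-Hochberg adjustment over all genes tested (19514, 19568 and 19204) and a threshold of 0.05. SE is the log2 change divided by the square root of F. CPM uses TMM-scaled library sizes, and shares use raw totals. The comparison of octanal with decanal used 1 fit of 36 libraries. Replicates were labelled as separate biological samples, and 3 per group limit the precision. Named genes were the mitochondrial genes, the 2 nuclear members per direction and odor with the smallest p and no overlap with controls, those called most often, complex II, tissue forms with their partners and the member with most counts per complex; others named in the text, in direct comparisons and in lists outside the rule, were chosen after their values were seen. DESeq2 1.42.0, its size factors in edgeR, no filter, scaling without mitochondrial genes, 1 fit of all sets, a replicate block and leaving out each library were alternatives. The scripts were tested on simulated counts with known changes in 50 genes per size of change. Of 1.5-fold changes, 28% were recovered in the acetophenone-decanal set, 8% in the octanal set and 44% in the floral-mint set. Of 2-fold changes the values were 70%, 54% and 86%. A member that was not called may therefore still have changed by such amounts. RefSeq promoter tables gave the sequences.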

Additional observations from a re-analysis of the deposited data

Results flagged for a closer look

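The octanal response and the decanal response differed for members of both kinds, by an interaction test in a fit of 36 libraries (edgeR, adjusted over all genes). All 13 mitochondrial genes were lower in the octanal response, with a median difference of -5.39 in log2 change. Of 90 nuclear members, 27 were lower and 17 higher, with a median difference of -0.38. Over all genes tested, 15.2% were lower and 18.9% higher. The odorants were tested in different sets with their own controls, so odorant and set cannot be told apart.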

How the results depend on the processing

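Counts of members called that moved by more than 1.5 times were as follows. With DESeq2, acetophenone had 8 nuclear members and 1 mitochondrial gene called, cis-3-hexenol 36 nuclear members and floral odor 3 mitochondrial genes. Without the filter on low counts, more genes of few counts were tested and the counts were 1 mitochondrial gene for acetophenone, 44 nuclear members and 13 mitochondrial genes for cis-3-hexenol, 10, 8 and 9 mitochondrial genes for floral, mint and floral-mint, and, over both kinds, 11 for the octanal mixture against octanal, 56 for it against cis-3-hexenol, 1 for floral-mint against floral and 1 for floral against mint. With all 36 libraries in 1 fit, the nuclear counts were 2 (acetophenone), 48 (cis-3-hexenol), 16 (floral), 1 (mint) and 8 (floral-mint), the mitochondrial counts 8 (cis-3-hexenol), 2 (floral), 0 (mint) and 1 (floral-mint), and the octanal mixture against cis-3-hexenol had 57. The cause was not tested.

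Replicate numbers did not pair the libraries: correlations of same-numbered libraries ran from -0.14 to 0.14, -0.09 to 0.25 and -0.29 to 0.17 in the 3 sets, and 4, 6 and 0 of 12 libraries correlated best with their own number. With the replicate block, mint had 23 nuclear members and floral-mint 2 mitochondrial genes called.

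Leaving out each library in turn gave ranges of 0 to 2 nuclear and 0 to 0 mitochondrial calls for acetophenone, 23 to 51 and 11 to 13 for decanal, 29 to 54 and 11 to 12 for its mixture, 19 to 42 and 12 to 12 for octanal, 0 to 8 and 0 to 6 for cis-3-hexenol, 19 to 21 and 2 to 11 for the octanal mixture, and, in the floral-mint set, 26 to 53 and 1 to 7 after floral odor, 7 to 74 and 1 to 8 after mint and 13 to 44 and 1 to 3 after both. Over both kinds the ranges were 65 to 77 for the first mixture against acetophenone, 0 to 0 against decanal, 62 to 80 for acetophenone against decanal, 0 to 1 for the octanal mixture against octanal, 9 to 44 against cis-3-hexenol, 26 to 78 for octanal against cis-3-hexenol and 0 to 0 in the floral-mint set. Some medians changed sign: the median over all 13 mitochondrial genes for acetophenone, -0.04 (0.00 without mt-Nd3 and mt-Nd4l), ran from -0.32 (without acetophenone replicate 3) to 0.15 (without control replicate 1) and was 0.13 without acetophenone replicate 1. The nuclear median for octanal ran from -0.19 (without octanal replicate 2) to 0.27 (without octanal replicate 3), and that for its mixture from -0.21 (without mixture replicate 1) to 0.042 (without mixture replicate 3). Of 341 called values of named genes, 145 lost their call under at least 1 alternative and none changed sign. Mitochondrial counts were lowest in the floral-mint set, from 2550 per library; the part of depth in the number of calls there was not tested.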

Other observations

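Pathways that feed the respiratory chain gave these counts, where octanal had 17.9% of all genes tested higher and 14.4% lower, and decanal 10.8% and 11.5%. Of 21 citric acid cycle genes, octanal had 16 higher and 0 lower (median log2 change 0.82), among them the isocitrate dehydrogenase subunits Idh3a (1.28) and Idh3b (1.21) and citrate synthase, Cs (1.04). Decanal had 2 higher, the pyruvate carriers Mpc1 (0.35) and Mpc2 (0.52), and 7 lower, with Cs at -0.48 and pyruvate carboxylase, Pcx, at -0.94 (median -0.20), while the nuclear members had a median of 0.39. Of 18 glycolysis identifiers tested, octanal had 11 higher and 1 lower, with Eno1 at 1.66, Pkm at 1.30 and Hk2 at -0.86, and decanal 0 higher and 7 lower.

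Ribosomal protein genes were counted for both compartments. As shares of all genes tested, decanal had 10.8% higher and 11.5% lower, and octanal 17.9% and 14.4%. The shares were 2.58% and 3.16% for cis-3-hexenol and 8.7% and 5.35% for floral odor. The cytosolic list had 73 of 83 higher after decanal (median 0.72) and 3 of 84 lower after cis-3-hexenol (median -0.11). The mitochondrial ribosome list (78 genes) had 23 higher and 4 lower after decanal, 9 and 4 after octanal, 1 and 18 after cis-3-hexenol and 22 and 0 after floral odor, with medians of 0.18, 0.06, -0.39 and 0.25.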
